A study of Mus musculus with 8 samples.

Results

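This section compares bone marrow-derived macrophages (BMDMs) labelled as given interleukin-4 (IL-4), with and without G-1, an agonist of the G protein-coupled estrogen receptor GPER1. The count file labelled IL4+G-1 was set against the file labelled IL4, 1 pooled library a side, over the genes with at least 20 counts in the larger library. That left 11344 of the 22173 gene symbols in each file, from 2 of the 8 libraries of the series.

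The study asked whether GPER1 activation changes how macrophages act in kidney fibrosis. This pair contrasts G-1 with its absence in the macrophages labelled IL4. Wild-type mouse bone marrow was differentiated for 7 days in medium with L929 cell supernatant, which carries macrophage colony-stimulating factor. By the paper's methods, BMDMs then received IL-4 at 20 ng/ml for 48 h, with or without G-1 at 10 μmol/L. The RNA of 3 samples a group was pooled for sequencing. The other libraries are unstimulated macrophages (M0), macrophages given LPS and interferon-γ (M1), and kidney tubular epithelial cells (TECs) co-cultured with M1 macrophages, each with and without G-1. The compound was dissolved in DMSO, and what the control of the sequenced pair received is not given in the sources used here. The mice's age is likewise not given there for these cultures, and each library stands for a pool with no replicate beside it.

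IL-4 binds the IL-4 receptor, activates the kinases JAK1 and JAK3 and the factor STAT6, and drives the alternative, or M2, program of macrophages. In the mouse that program is known by Retnla, Chil3, Arg1, Ccl17, Ccl22, Ccl24, Mgl2 and Mrc1, which encode secreted proteins, an arginine-degrading enzyme, chemokines and lectin receptors. GPER1 is a membrane receptor coupled to G proteins, whose known signals include cyclic AMP, calcium and the mitogen-activated protein kinases (MAPKs). M2 macrophages are studied in fibrosis because they release factors such as TGF-β1 that act on fibroblasts.

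The files hold whole-number counts per gene. The total was 40671596 counts in the library labelled IL4 and 38681822 in the library labelled IL4+G-1, within the 35027179 to 40671596 of all 8 libraries. With 1 library a side no p-value can be given for the pair. Folds were scaled by trimmed means (TMM). The range in brackets after a fold is its exact 95% binomial counting interval, which covers counting error only and not differences between mice or cultures. A gene is called higher or lower when its fold was at least 2. In pooled cultures, fewer cells of a kind and less RNA per cell cannot be told apart, and reads of near-identical genes (Scd1 and Scd2, the Gbp, Ifit3, C1q, Clec4a, Tmem176, Ms4a and H2 genes) may have been shared between them in counting.

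The IL-4 label was checked first, and several of the defining transcripts were absent or nearly so. Retnla, Chil4 and Ccl17 stood at 0 counts in both libraries, where a count of 0 allows up to 3 counts, or 0.0738 CPM (counts scaled to the library total), in the library labelled IL4. Arg1 had 7 counts without G-1 and 4 with it, Chil3 had 9 and 9, and Ccl22 had 0 and 1. Mgl2, a lectin, had 14 counts in the library labelled IL4 and 649 in the M0 library.

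Set against the M0 library, the library labelled IL4 had 1 of 23 measured IL-4 induced genes called higher and 10 called lower, where 7.7% of all 11333 genes were called higher and 6.64% lower. The gene that was higher was Ch25h, cholesterol 25-hydroxylase, with 187 counts against 2. Between the libraries with G-1, 1 of 18 was higher and 8 were lower, against 6.7% and 6.11% of 11233 genes. Mrc1, the mannose receptor, had 188110 counts in the library labelled IL4 and 83675 in the M0 library, a log2 difference of 0.83, which is under 2-fold. These comparisons set 1 library against 1, so the label cannot be told apart from differences between cultures. By qPCR, the paper reported Mrc1, Tgfb1, Retnla and Il10 mRNA raised by IL-4 and reduced when G-1 was added. In these counts Il10 had 130 in the library labelled IL4 and 181 in the M0 library. Tgfb1 had 17077 and 22678, and Retnla had 0 in each. Whether the sequenced cells responded to IL-4 is therefore not shown by these transcripts, and the libraries are called by their labels throughout.

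**Figure D1:**
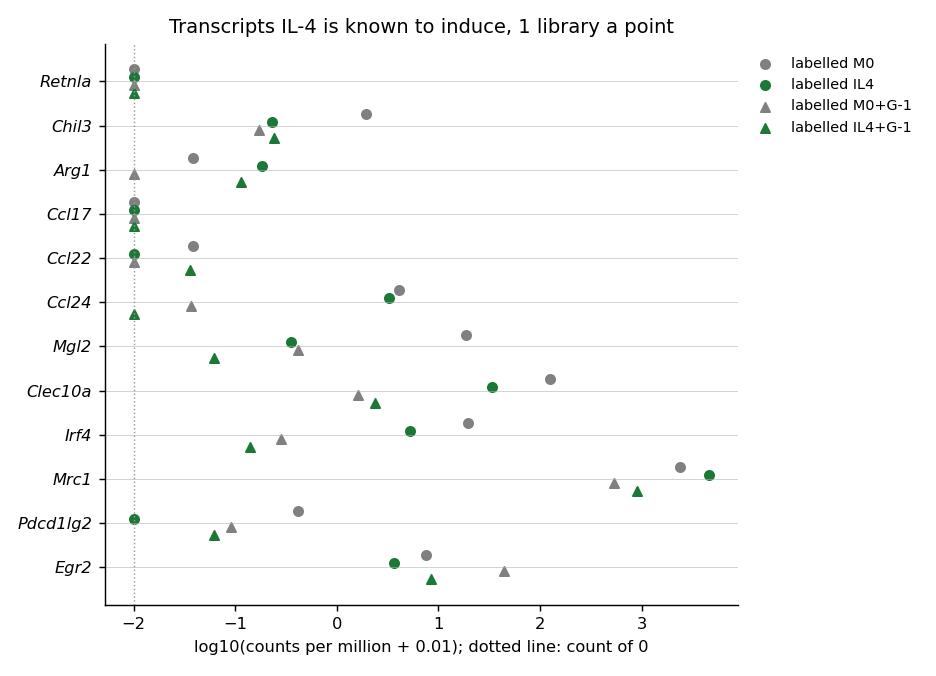
Transcripts that IL-4 is known to induce in mouse macrophages. Each point is 1 library, the x axis is log10 of CPM plus 0.01, and the dotted line marks a count of 0. Retnla and Ccl17 lie at 0 in all 4 libraries, Arg1 and Chil3 lie near it in the IL4-labelled libraries, and Mgl2, Clec10a and Irf4 are lower in the library labelled IL4 than in the M0 library.

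The cells did carry the transcripts of macrophages. All 25 general macrophage markers were measured, led by Lyz2, which took 3.59% of the counts in the library labelled IL4. With G-1, 7 of the 25 were at least 2-fold lower and 1 was higher, against 7.78% and 5.95% of all 11344 measured genes. Their log2 folds had a median of -0.27 (-0.15 with trends of length and GC content removed). Of the marker lists of other cells, those of neutrophils, dendritic cells, lymphocytes and fibroblasts had 1 measured gene each and those of mast cells and erythroid cells had 0. Their summed levels ran from 0.0738 to 3.22 CPM in the library labelled IL4 and from 0 to 1.81 CPM with G-1. Members at 0 in both libraries numbered 6 of 10 for neutrophils, 5 of 8 for dendritic cells and 6 of 10 for lymphocytes. They numbered 9 of 11 for mast cells, basophils and eosinophils, 3 of 4 for erythroid cells and 1 of 10 for fibroblasts.

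The receptor that G-1 activates and the classical estrogen receptors were low or had no counts. Gper1 and Esr2, which encodes estrogen receptor β, had 0 counts in both libraries. Esr1, which encodes estrogen receptor α, had 239 counts without G-1 and 54 with it, 4.24-fold lower (3.15 to 5.81), and was the 1 of 3 measured estrogen and steroid receptor genes past 2-fold.

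Across the pair, 675 genes (5.95%) were called higher with G-1 and 882 (7.78%) called lower, so 13.7% of measured genes passed 2-fold. The shares of 5.95% and 7.78% are the background for the list counts of this pair. Past 4-fold stood 203 genes higher (1.79%) and 287 lower (2.53%), and past 10-fold 70 (0.617%) and 95 (0.837%). The median log2 fold over all measured genes was 0.01. The fold bore no trend with transcript length (Spearman rho 0.022 across 11131 genes, which are not independent replicates) and a weak one with GC content (rho -0.066).

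**Figure D2:**
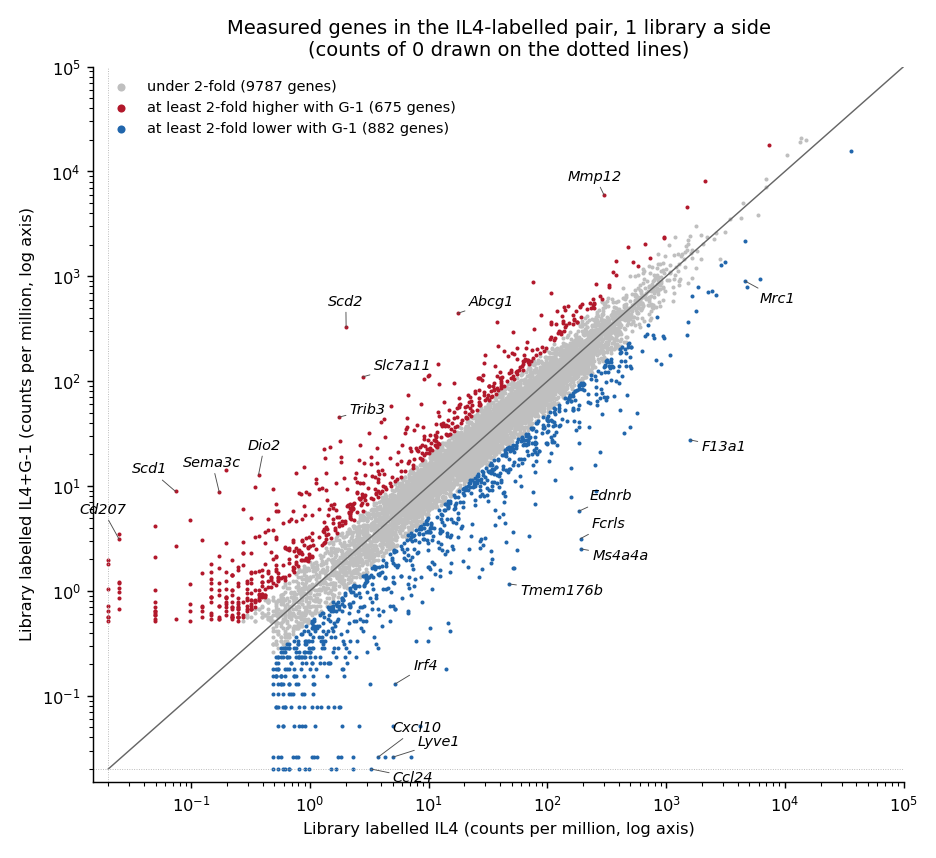
CPM of the 11344 measured genes in the library labelled IL4 (x axis) and the library labelled IL4+G-1 (y axis), both on log axes with counts of 0 drawn on the dotted lines. Points above the diagonal are higher with G-1. Scd2, Slc7a11, Abcg1 and Mmp12 stand far above it at quite different levels, and F13a1, Ms4a4a, Fcrls and Mrc1 stand below it.

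Scd2 had the largest fold upward among genes of at least 100 counts. It encodes a stearoyl-CoA desaturase that makes monounsaturated fatty acids (chromosome 19, 44293676 to 44306864, GRCm38.p6) and had 82 counts without G-1 and 12629 with it. That is 161-fold higher (129 to 202). Its paralog Scd1 went from 3 counts to 343, a ratio of 119 (40.5 to 581). Both lie on chromosome 19, and both were near the detection limit or low in the library labelled IL4.

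Of the 16 measured genes of fatty acid synthesis and desaturation, 8 were higher and 0 lower, with a median log2 fold of 0.97. Fads2, the delta-6 desaturase, had 14 counts without G-1 and 59 with it, 4.40-fold higher (2.42 to 8.53). Acaca, which commits acetyl-CoA to fatty acid synthesis, had 853 and 1730 counts, 2.12-fold higher (1.95 to 2.30). The acyl-CoA synthetases Acsl3 and Acsl4 were 2.64-fold (2.42 to 2.88) and 2.32-fold (2.24 to 2.40) higher. Scd1 and Scd2 lay far above the other called members, whose folds ran from 2.04 to 4.40.

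Of 17 measured genes of fatty acid uptake and lipid storage 9 (52.9%) were higher and 0 lower, with 8 under 2-fold and a median of 1.0. Fabp4, a fatty acid carrier that IL-4 and PPARγ also induce, had 493 counts without G-1 and 3641 with it, 7.70-fold higher (7.01 to 8.48). Hilpda, an inhibitor of lipolysis, went from 269 to 1741 counts, 6.75-fold higher (5.93 to 7.71). Plin2, the coat protein of lipid droplets, had 19341 and 73511 counts, 3.96-fold higher (3.90 to 4.03). Lpl, lipoprotein lipase, had 26887 and 79085 counts, 3.07-fold higher (3.03 to 3.11). Plin2 and Lpl were abundant on both sides, and Hilpda and Fabp4 were much less so in the library labelled IL4.

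Abcg1, which exports cholesterol from macrophages and is a target of the liver X receptors, had 714 counts without G-1 and 17153 with it. It was 25.1-fold higher (23.3 to 27). In the list of cholesterol efflux and liver X receptor genes 4 of 19 were higher and 1 lower, with a median of 0.22. Abca1, the other main exporter, was 3.65-fold higher (3.58 to 3.71), and Mylip, which marks the LDL receptor for degradation, 3.66-fold higher (3.49 to 3.83). Cyp27a1, a sterol 27-hydroxylase, was 2.75-fold lower (2.5 to 3.02), at 1704 and 595 counts. In cholesterol synthesis 3 of 25 genes passed 2-fold, all higher, with a median of 0.70. Squalene epoxidase, Sqle, was the largest at 2.16-fold (2.03 to 2.29).

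ATF4 is a transcription factor whose protein is made when the kinases of the integrated stress response slow translation, and its targets make, import and load amino acids. Of its 32 listed genes 17 (53.1%) were higher and 1 lower, with a median of 1.03.

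Chac1, which degrades glutathione, had 14 counts without G-1 and 378 with it, 28.2-fold higher (16.6 to 52.0). Trib3, a pseudokinase that restrains ATF4 and AKT, had 71 and 1751 counts, 25.7-fold higher (20.3 to 33.1). Asns, asparagine synthetase, had 272 and 2878 counts, 11-fold higher (9.74 to 12.5). Mthfd2, of the mitochondrial folate pathway, and Phgdh, the first enzyme of serine synthesis, were 11.2-fold (10.1 to 12.4) and 8.58-fold (5.24 to 14.9) higher. The exception was Vldlr, a lipoprotein receptor, with 274 counts without G-1 and 24 with it, 10.9-fold lower (7.2 to 17.4).

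Atf4 itself was 3.30-fold higher (3.19 to 3.42) at 4324 and 13687 counts, and Ddit3, which encodes CHOP, was 4.17-fold higher (3.78 to 4.62). Aars, alanyl-tRNA synthetase, was 2.37-fold higher (2.29 to 2.46). These 3 genes were named after their values were seen.

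Among amino acid transporters 8 of 22 (36.4%) were higher and 2 lower, with a median of 0.41. Slc7a11, the cystine-glutamate exchanger that feeds glutathione synthesis, had 113 counts without G-1 and 4248 with it, 39.2-fold higher (32.5 to 47.7). Slc6a9, a glycine transporter, had 2 and 82 counts, a ratio of 42.8 (11.5 to 359). The cationic transporter Slc7a1 and the leucine transporter Slc7a5 were 5.73-fold (5.28 to 6.23) and 5.70-fold (4.73 to 6.90) higher.

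The chaperone arm of the unfolded protein response, which answers misfolded protein in the endoplasmic reticulum, had no member called higher. Of its 25 measured genes 0 were at least 2-fold higher, 2 were lower, and the median was -0.14. Derl3 had 44 counts without G-1 and 1 with it, and Herpud1 was 2.15-fold lower (2.01 to 2.30). The antioxidant genes under NRF2 had 2 of 18 higher, Srxn1 at 3.0-fold (2.90 to 3.10) and Txnrd1 at 2.41-fold (2.36 to 2.47), with a median of 0.44. Glycolysis and hypoxia genes had 2 of 21 higher, led by Egln3 at 7.43-fold (4.83 to 11.9).

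The letters before the start of 4 of these genes are shown because ATF4 and its partners are known to bind the core TGATGNAA at amino acid-responsive genes. Sequences are from RefSeq on GRCm38.p6, written 5′ to 3′ on the gene's strand, and capitals mark matches of TGATGNAA on either strand. Slc7a11 is chr3:50443634-50443713 (minus strand), Asns chr6:7693210-7693269 (minus), Chac1 chr2:119351022-119351081 (plus) and Aars chr8:111033702-111033761 (plus).
Slc7a11: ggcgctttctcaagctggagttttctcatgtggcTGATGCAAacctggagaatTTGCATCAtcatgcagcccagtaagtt
Asns: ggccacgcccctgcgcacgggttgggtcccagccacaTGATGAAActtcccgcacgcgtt
Chac1: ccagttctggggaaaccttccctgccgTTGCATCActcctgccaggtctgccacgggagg
Aars: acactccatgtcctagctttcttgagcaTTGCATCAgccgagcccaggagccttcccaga
Slc7a11 holds 2 matches that face each other, and the other stretches hold 1 each.

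Promoter windows of 250 bases before to 50 after the start were given for 9185 measured genes. TGATGNAA on either strand, a motif added after the folds were seen, was in 2.81% of them, in 3.82% of the genes called higher and in 4.66% of those called lower. Of the 27 ATF4-list genes with a window, 10 (37.0%) held it, among them Vldlr, which was lower, and Nupr1, Tars, Gars and Yars, which were under 2-fold. Of 17 amino acid transporters with a window 3 held it, Slc1a4, Slc7a7 and Slc7a11, and Slc7a7 was lower. The 4 genes printed above were all called higher. A match says only that these letters occur in the window.

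The MAPK pathway was read through its phosphatases, kinases and target genes. The dual-specificity phosphatases (DUSPs) switch MAPKs off, and 6 of 10 were higher and 2 lower with a median of 1.31. Dusp1, which acts on p38 and JNK in the nucleus, had 1208 counts without G-1 and 6848 with it, 5.91-fold higher (5.56 to 6.29). Dusp9 had 21 and 225 counts, 11.2-fold higher (7.14 to 18.4), and Dusp8 had 67 and 411, 6.40-fold higher (4.93 to 8.41). Dusp4 was 3.94-fold higher (3.70 to 4.21). Dusp6, the cytoplasmic ERK phosphatase, stood the other way, with 10581 counts without G-1 and 2487 with it, 4.08-fold lower (3.90 to 4.26). The summed level of the 10 phosphatases was 501.7 CPM without G-1 and 486.3 with it.

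The kinases and RAS proteins of the cascade were mostly under 2-fold, with 1 of 35 higher, 3 lower and a median of 0.02. Mapk11, which encodes p38β, was 3.97-fold lower (2.73 to 5.92) and Map2k6, which activates p38, 2.89-fold lower (2.33 to 3.62). Other negative regulators of the cascade had 2 of 31 higher (6.45%) and 3 lower (9.68%), near the 5.95% and 7.78% of all measured genes. Immediate-early genes had 5 of 20 higher (3 with a minimum of 100 counts) and 2 lower, with Atf3 at 4.07-fold higher (3.91 to 4.23) and Ier3 at 3.20-fold lower (2.91 to 3.53).

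Genes that answer cyclic AMP had 4 of 17 higher and 2 lower, with a median of 0.15. Dio2, a deiodinase that turns thyroxine into active hormone, had 15 counts without G-1 and 495 with it, 34.4-fold higher (20.7 to 62.0). Pde4b, a phosphodiesterase that cyclic AMP induces, was 3.54-fold lower (3.17 to 3.95). The full cyclic AMP response element, TGACGTCA, lies before the starts of Dio2 and Dusp1, which are shown because both were among the genes that were higher. Capitals mark it in Dio2, chr12:90739099-90739158 (minus strand), and in Dusp1, chr17:26508583-26508642 (minus strand), from the same source.
Dio2: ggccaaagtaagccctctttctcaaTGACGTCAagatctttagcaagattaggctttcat
Dusp1: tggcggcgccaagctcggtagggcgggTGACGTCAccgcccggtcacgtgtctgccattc
The element was in 3.63% of all windows, in 3.25% of those of genes called higher and in 0.873% of those called lower.

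Interferon-stimulated genes, which macrophages keep at a basal level through autocrine interferon-β, were lower in part. Of 42 measured 14 (33.3%) were lower and 1 higher, with a median of -0.72, and the other 27 were under 2-fold. Cxcl10, a chemokine for T cells, had 152 counts without G-1 and 1 with it, a ratio of 146 (25.8 to 5793). The guanylate-binding proteins Gbp5 and Gbp7 were 23.2-fold (13.4 to 44.1) and 15.2-fold (12.5 to 18.5) lower. Ifit1, which binds foreign RNA, had 720 and 186 counts, 3.71-fold lower (3.15 to 4.38). The one that was higher was Oas3, at 1448 and 3675 counts, named after its value was seen. Without G-1, the library labelled IL4 stood lower than the M0 library in 24 of 43 of these genes and higher in 0, again 1 library a side. The median of that comparison was -1.055, and 6.64% of all 11333 genes were lower in it. Between the libraries with G-1, 0 of 40 were lower and 3 higher, with a median of 0.14.

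The core of the interferon-stimulated response element, GAAA repeated at a spacing of 2 bases on either strand, was in 22 of 33 interferon-stimulated genes with a window. It was in 3.94% of all windows, in 8.44% of those called lower and in 2.87% of those called higher. TGANTCA, the AP-1 site, was in 10.9% of windows called higher and 10.5% of those called lower, against 6.19% of all. TCACNCCAC, a sterol regulatory element, was in 2.49%, 1.60% and 1.34%.

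Scavenger and resident macrophage receptors were the list with the lowest median, -1.42, with 12 of 20 lower and 1 higher, apart from lists of 1 measured gene. Lyve1, a hyaluronan receptor of tissue macrophages, had 202 counts without G-1 and 1 with it, a ratio of 194 (34.4 to 7686). Fcrls had 7736 and 122 counts, 60.8-fold lower (50.8 to 73.3). Siglec1, the sialic acid receptor CD169, had 23096 and 1912 counts, 11.6-fold lower (11.1 to 12.1). Cd163, the hemoglobin scavenger receptor, was 5.65-fold lower (4.40 to 7.34). Mrc1 had 188110 counts without G-1 and 34853 with it, 5.17-fold lower (5.12 to 5.23). Cd36, a receptor for oxidized lipoprotein that also takes up fatty acids, was the member that was higher.

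Chemokine and pattern receptors were lower in 13 of 30 (43.3%) and higher in 2, with a median of -0.48. Fpr1, the receptor for bacterial formyl peptides, had 2262 counts without G-1 and 95 with it, 22.8-fold lower (18.6 to 28.3). Cx3cr1, the fractalkine receptor, had 147 and 12 counts, 11.7-fold lower (6.52 to 23.2). Tlr5, the flagellin receptor, was 10.3-fold lower (7.46 to 14.7) and Tlr1, a partner of TLR2, 6.21-fold lower (5.47 to 7.08). Ccr2, the receptor that brings monocytes out of marrow, had 99 and 20 counts.

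Cytokines and chemokines were split, 9 of 26 lower and 4 higher, with a median of -0.71. Il10, the anti-inflammatory cytokine that M2 macrophages release, had 130 counts without G-1 and 5 with it, 24.9-fold lower (10.4 to 78.0). Ccl24, an eosinophil chemokine, had 133 counts and 0, 42.5-fold lower with the 0 taken at 3 counts. Pf4 had 43941 and 6918 counts, 6.09-fold lower (5.94 to 6.25), and Ccl12 was 6.02-fold lower (4.62 to 7.94). Il1a, interleukin-1α, went the other way, from 48 counts to 362, 7.87-fold higher (5.81 to 10.9).

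Class II antigen presentation was lower in 6 of 9 measured genes with a median of -1.23. H2-Aa had 79 counts without G-1 and 12 with it, 6.31-fold lower (3.42 to 12.7). Cd74, the invariant chain, had 509 and 149 counts, 3.27-fold lower (2.72 to 3.96). These levels were low without G-1 too, beside 27636 counts of Cd74 in the M0 library. With a minimum of 100 counts 2 genes were lower and the median was -0.58. The summed level of the list was 1584 CPM without G-1 and 2086 with it, nearly all of it Ctss, cathepsin S, at a log2 fold of 0.42.

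The IL-4 induced genes themselves did not move together. Of the 20 measured 8 were higher with G-1 and 7 lower, with a median of -0.10 (-0.24 with no count minimum). Irf4, a factor of the M2 program, had 212 counts without G-1 and 5 with it, 40.6-fold lower (17.1 to 126). Clec10a, a lectin, had 1363 and 92, 14.2-fold lower (11.5 to 17.7). Tgm2, transglutaminase 2, had 3599 and 16509, 4.79-fold higher (4.62 to 4.96). Il1rn, the interleukin-1 receptor antagonist, went from 548 to 2426 counts, 4.62-fold higher (4.21 to 5.08).

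In IL-4 receptor signaling 1 of 17 genes was higher and 4 lower. Il4ra, the receptor's α chain, had 12783 counts without G-1 and 3766 with it, 3.25-fold lower (3.14 to 3.38). Jak3 was 3.53-fold lower (3.18 to 3.93), and the feedback inhibitors Socs3 and Cish were 10.4-fold (6.89 to 16.3) and 9.72-fold (5.61 to 18.2) lower.

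Profibrotic and angiogenic factors were split, with 8 of 17 higher, 4 lower and a median of 0.51. F13a1, the A chain of coagulation factor XIII, had 65206 counts without G-1 and 1063 with it, 58.8-fold lower (55.3 to 62.5). Tgfbi, a matrix protein that TGF-β induces, had 7565 and 1005 counts, 7.22-fold lower (6.76 to 7.71). Lgals3, galectin-3, stood the other way at 86528 and 315267 counts, 3.80-fold higher (3.77 to 3.83). Inhba, a subunit of activin A, had 9 counts without G-1 and 77 with it, 8.92-fold higher (4.46 to 20.3). With a minimum of 100 counts 5 were higher and the list's median was -0.04, so its direction rests on low genes. Tgfb1 had 17077 counts without G-1 and 10927 with it, 1.5-fold lower (1.46 to 1.53), under the 2-fold line.

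Matrix proteases divided sharply. Mmp12, macrophage elastase, had 12199 counts without G-1 and 230331 with it, 19.7-fold higher (19.3 to 20.1). Adamts1, an aggrecanase, had 0 and 70 counts, 24.3-fold higher with the 0 taken at 3 counts. Mmp9, gelatinase B, had 1790 and 313 counts, 5.48-fold lower (4.86 to 6.20), and Mmp14, a membrane-bound collagenase, was 4.82-fold lower (4.34 to 5.35). In the list 3 of 17 were higher and 6 lower.

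Osteoclast and fusion genes were higher in 5 of 12 and lower in 2. Ctsk, the collagen-degrading cathepsin K, had 84 counts without G-1 and 360 with it, and Atp6v0d2, a proton pump subunit, had 1049 and 4121, which are 4.47-fold (3.52 to 5.74) and 4.10-fold (3.83 to 4.39) higher. Of the integrin subunits 3 of 14 were higher and 3 lower. Itgam, the α chain of complement receptor 3, had 61844 and 14302 counts, 4.15-fold lower (4.07 to 4.22), while Itgb3, the β chain of the vitronectin receptor, had 59 and 233, 4.12-fold higher (3.08 to 5.58).

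Genes of S phase and mitosis were lower in 9 of 42 and higher in 1, with a median of -0.64. Birc5, survivin, had 786 counts without G-1 and 273 with it, 2.76-fold lower (2.40 to 3.18). Ccnb2, cyclin B2, was 2.45-fold lower (2.17 to 2.76). Pcna, the sliding clamp of DNA polymerase, was the member that was higher, at 6837 and 15149 counts. Cdkn1c, the cyclin-dependent kinase inhibitor p57, had 20 and 364 counts, 19.0-fold higher (12.1 to 31.5). Of 10 cyclin-dependent kinase inhibitors and D cyclins 1 was higher and 2 lower. Of the p53 targets 4 of 16 were higher and 2 lower. Alpha and beta tubulins had 1 of 10 higher, and lysosomal genes and cytosolic ribosomal proteins had 0 of 25 and 0 of 30 past 2-fold, with medians of 0.10 and 0.03.

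**Figure D3:**
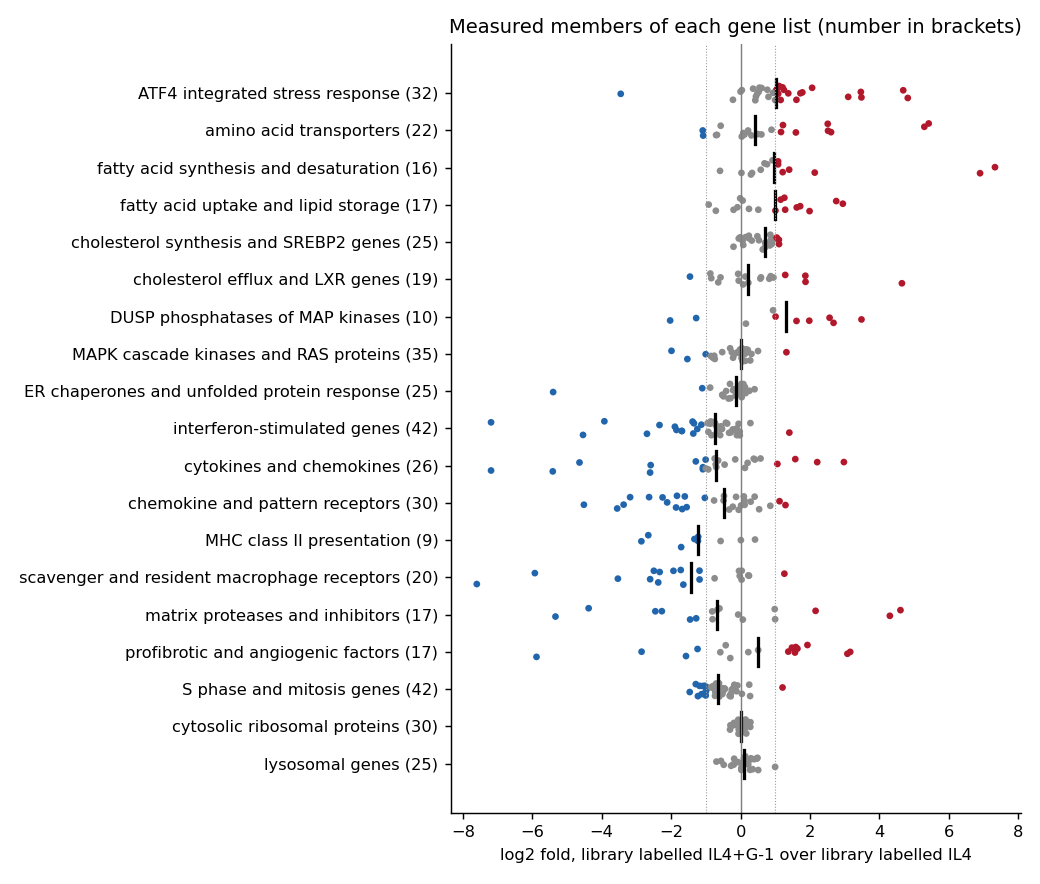
Log2 fold (library labelled IL4+G-1 over library labelled IL4) of each measured member of 19 gene lists, 1 point a gene, with the list's median as a black bar and 2-fold as dotted lines. Red points are at least 2-fold higher and blue points at least 2-fold lower. ATF4 targets and lipid genes lie to the right, scavenger, class II and interferon genes to the left, and ribosomal and lysosomal genes gather at 0.

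Other genes with large folds belong to no list. Among the 15 largest folds upward were Sema3c, a secreted semaphorin, with 7 counts without G-1 and 338 with it, 50.4-fold higher (24.2 to 126), and Tmeff1, at 8 and 549 counts. Hspa1l, an HSP70 family chaperone, and Cd207, langerin, had ratios above that of Scd1, each from 1 count. Hspa1l had 1 and 136 counts, a ratio of 142 (25.0 to 5644), and Cd207 had 1 and 121, a ratio of 126 (22.2 to 5026). Aqp9, a glycerol and water channel, had 4 and 183 counts, 47.7-fold higher (18.3 to 177). Among the 15 largest downward, Ms4a4a had 7847 counts without G-1 and 97 with it, 77.5-fold lower (63.5 to 95.7). Gpr34, a lysophosphatidylserine receptor, had 574 and 7 counts, 78.6-fold lower (37.9 to 196). Ednrb, endothelin receptor B, had 7449 and 222 counts, 32.2-fold lower (28.1 to 36.9). Kmo, of the kynurenine pathway, had 204 and 2 counts, and Slco2b1, an organic anion transporter, had 342 and 2.

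The M0 and M1 pairs, which share no control library with this pair, were set beside it. In the M0 pair 12.2% of 11252 genes were called higher and 12.6% lower, and in the M1 pair 9.44% and 12.1% of 11064. Across 11008 genes measured in both, log2 folds of the pair labelled IL4 and the M0 pair had a Pearson r of 0.752 and a Spearman rho of 0.650. Against the M1 pair they were 0.232 and 0.163 across 10686 genes. Genes are not independent replicates, and these are descriptions with no test.

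Of the 588 genes called higher here and measured in the M0 pair, 464 were higher there and 11 lower. Of 785 called lower, 601 were lower in the M0 pair and 27 higher. In the M1 pair 126 of 558 were higher and 81 lower, and 217 of 638 were lower and 47 higher.

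The genes with large folds were mostly nearer to 0 in the M1 pair. They were picked for their folds in the pair labelled IL4, so folds nearer to 0 elsewhere are partly expected from that choice. Slc7a11 had a log2 fold of 5.29 here, 4.20 in the M0 pair and -1.37 in the M1 pair, where it already had 33691 counts without G-1. Scd2 had 7.33, 6.18 and 0.49, with 17612 counts in the M1 library without G-1. Dio2 had 5.11, 8.65 and 2.36, the same direction in each pair, and so had Ednrb with -5.01, -3.49 and -2.47. Lyve1 had 0 counts in both M0 libraries, and 7 and 0 in the M1 libraries.

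**Figure D4:**
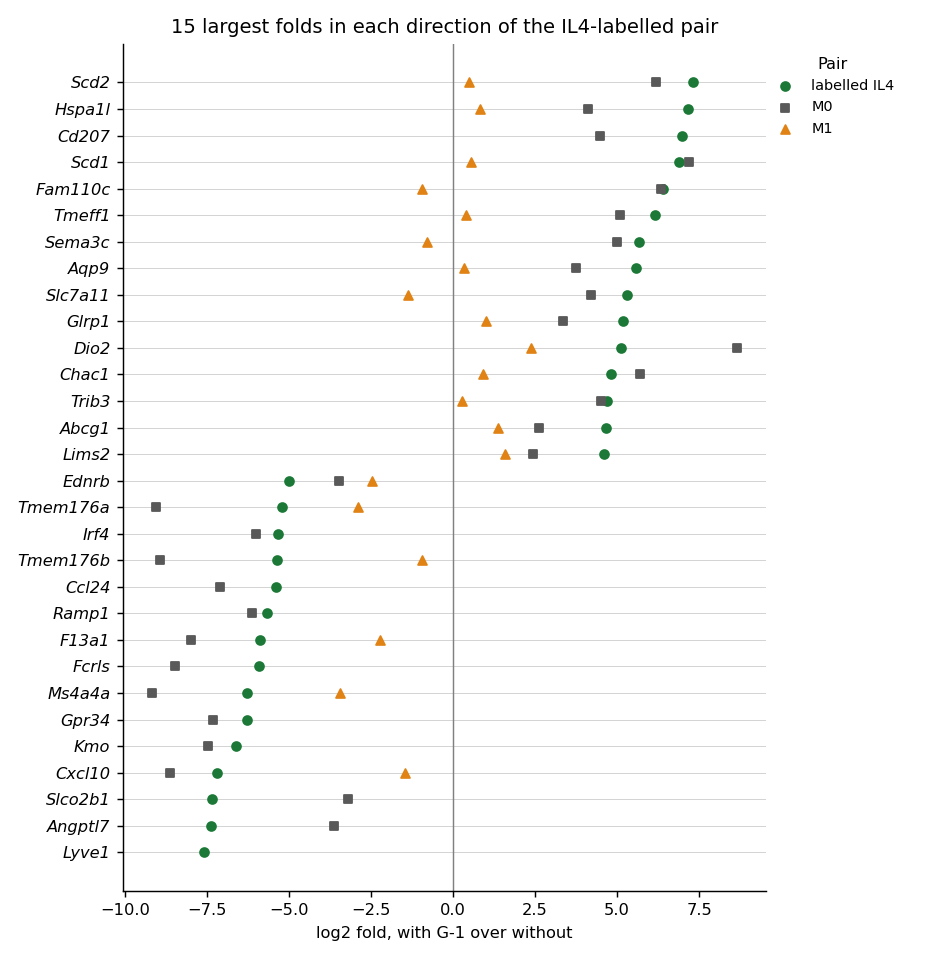
Log2 fold with G-1 over without for the 15 largest folds in each direction of the pair labelled IL4 (circles), with the same genes in the M0 pair (squares) and the M1 pair (triangles), each from 1 library a side. A count of 0 stands at 3 counts, and a gene under 20 counts in the larger library of a pair is not drawn for that pair. Circles and squares lie on the same side of 0 for every gene with both, and the triangles lie nearer to 0 than the circles. The genes were picked by the size of the circles' folds, which partly sets that difference.

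Cell cycle genes stood on opposite sides of 0 in this pair and the M0 pair. Their median was -0.64 here and 1.40 in the M0 pair, where 25 of 42 were higher, against 12.2% of all 11252 genes. Mki67 had 5046 counts without G-1 and 3363 with it here, and 1440 and 2636 in the M0 libraries. Top2a had 3020 and 1826 here, and 424 and 1680 there. Without G-1, Mki67 and Top2a stood higher in the library labelled IL4 than in the M0 library. In that comparison 34 of 42 genes were at least 2-fold higher, against 7.7% of all 11333 genes. With 1 library a side, the label cannot be told apart there from differences between cultures. Cdkn1c, in contrast, was higher with G-1 in each pair, at log2 4.25 here. Mki67 and Top2a were named after their values were seen.

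**Figure D5:**
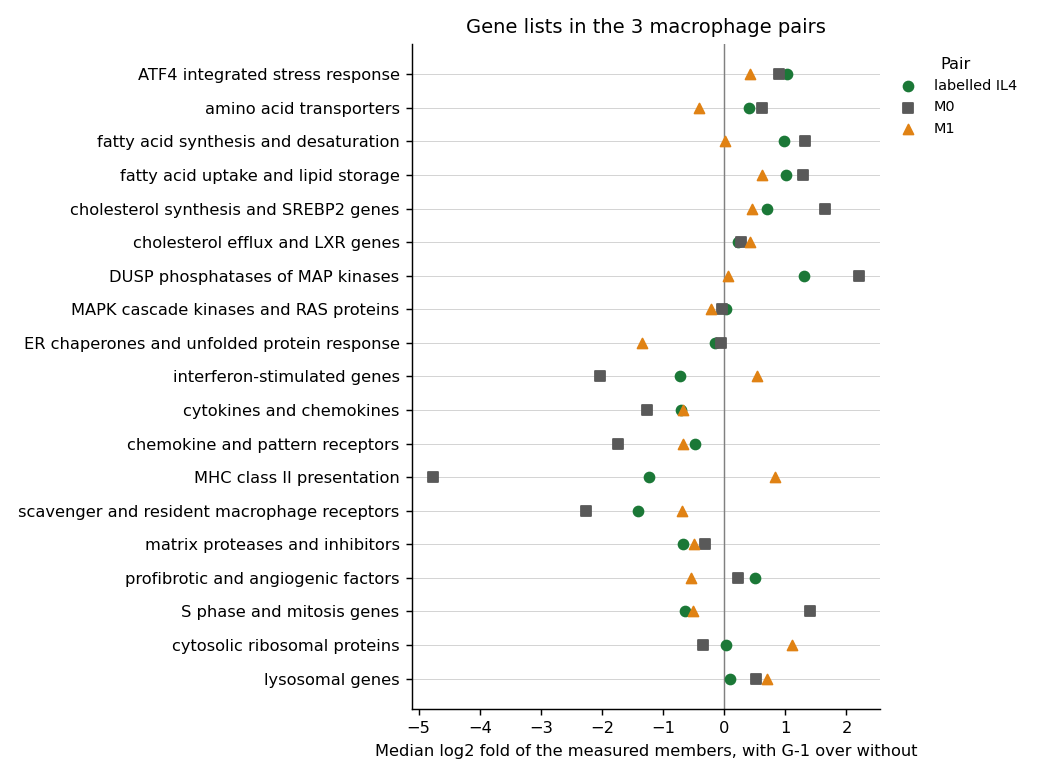
Median log2 fold of the measured members of 19 gene lists, with G-1 over without, in the pair labelled IL4 (circles), the M0 pair (squares) and the M1 pair (triangles). Interferon, class II and ribosomal lists lie on opposite sides of 0 in the M0 and M1 pairs with the IL4-labelled pair between them, and S phase and mitosis genes are at 1.40 in the M0 pair and -0.64 in the pair labelled IL4.

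The only error the design allows is the spread of the G-1 fold between the macrophage states. In an edgeR quasi-likelihood model of state and G-1 over 6 libraries, with 2 residual degrees of freedom, 0 of 11490 genes were higher and 0 lower (0% each) at a Benjamini-Hochberg adjusted p of 0.05. The smallest adjusted p from edgeR was 0.077, and 655 genes were higher and 912 lower at an unadjusted p of 0.05. DESeq2 with the same model called 329 higher and 481 lower.

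Without the M1 pair, the same edgeR model over the M0 and IL4-labelled pairs called 422 of 11608 genes higher (3.64%) and 556 lower (4.79%). The fit rests on 4 libraries and 1 residual degree of freedom, so its p-values measure how alike the M0 and IL4-labelled pairs are, not the spread between cultures given IL-4. In the model over all 3 states Scd2 had an adjusted p of 0.303 and Slc7a11 of 0.470 by edgeR.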

How the data were processed

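RNA of cultured macrophages was sequenced from paired-end libraries (VAHTS Universal V6 kit, 1 pooled library a group). The authors deposited whole-number read counts per gene symbol for each library. In the submitters' notes on processing, mm10 is the build and DESeq2 the tool named. For the aligner, counter and strand setting, nothing is given in the sources used here. The values in those files were used as counts. Totals ran from 35027179 to 40671596 counts a library, and 0 columns belonged to other samples.

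Symbols were matched to RefSeq (GRCm38.p6), 21954 of 22173. Library sizes were scaled by TMM (edgeR 4.0.16, R 4.3.3) within the pair, and folds were taken as scaled ratios with exact 95% binomial intervals. Measured means at least 20 counts in the larger library, a call means 2-fold, and a count of 0 was set to 3 counts. The lists and the members were chosen with earlier results of these data known. Named genes were the 15 with the largest fold upward and the 15 downward, given at least 100 counts and no predicted genes, Mrc1, Tgfb1, Retnla, Il10, Gper1, Esr1 and Esr2, up to 6 members a list with the largest fold, and the IL-4 induced genes for the label check. In all, 39 lists were described. The shared model was edgeR's glmQLFTest with filterByExpr, and the fold scripts and that model were tested on simulated data. Alternatives were DESeq2 1.42.0, its size factors, total counts, other count minimums, a prior of 5 counts, length and GC trends removed by running medians of 501 genes, and each pair left out. Mx1 and Mx2 were not analysed here.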

Additional observations from a re-analysis of the deposited data

Results flagged for a closer look

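These values differ in direction between the pair labelled IL4 and another pair, and since each state gave 1 pair, none of the differences was tested. Interferon-stimulated genes had a median log2 fold of -0.72 in the pair labelled IL4 and 0.54 in the M1 pair. MHC class II presentation genes had -1.23 and 0.83, and H2-Aa alone had -2.66 and 2.72. The class II median in the pair labelled IL4 was -0.58 with a minimum of 100 counts. Profibrotic and angiogenic factors had a median of 0.51 against -0.54 in the M1 pair. With a minimum of 100 counts the median in the pair labelled IL4 was -0.04, so this difference in direction rests on low genes. S phase and mitosis genes had -0.64 against 1.40 in the M0 pair. Slc7a11 had 5.29 against -1.37 in the M1 pair.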

How the results depend on the processing

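The 675 genes called higher became 1114 with no count minimum, 449 where the bound of the interval nearest to no change had to pass 2-fold, and 134 past 2-fold with p under 0.05 in DESeq2, whose dispersion was then estimated as if both libraries were 1 group, so that these p-values have no replicate behind them. The 882 called lower became 1310, 587 and 211 in the same order. With total counts, 2 IL-4 induced genes in place of 1 were higher in the library labelled IL4+G-1 than in the M0 library with G-1. The shared edgeR counts of 0 higher and 0 lower became 329 and 481 with DESeq2 (smallest adjusted p 0.077 in the main model), 12 and 13 with no filter, 14 and 23 without the M0 pair, 422 and 556 without the M1 pair, and 14 and 33 without the pair labelled IL4. The cause of these moves was not tested. Of 215 named genes 6 moved by more than their counting interval with DESeq2 size factors, 3 with total counts and 21 with length and GC trends removed, and 0 reversed. The largest move of a list median with the trends removed was 0.123, that of the general macrophage markers, and the MHC class II median moved by 0.65 with a minimum of 100 counts. The shared model compares G-1 within each state. No paired analysis was possible because of missing replicates within the pair labelled IL4, which has 1 library a group.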
